A study of Homo sapiens with 6 samples.

Results

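The genes described here encode the replicative DNA polymerases and their sliding clamp: POLA1, POLA2, PRIM1 and PRIM2 of DNA polymerase alpha-primase, POLD1 and POLD3 of polymerase delta, POLE and POLE2 of polymerase epsilon, the clamp PCNA and the flap endonuclease FEN1. They were chosen by gene symbol, with earlier results of these data known. All 10 had a row among the 32299 genes of the deposited table. The polymerase delta and epsilon subunits POLD2, POLD4, POLE3 and POLE4 were not among those chosen. Poly(A) RNA of U87 cells, an established line derived from a human glioma, was sequenced in 6 libraries. The labels name a control vector for 3 of them and tau overexpression for the other 3, and the names control-labelled and tau-labelled follow those labels. Every direction given is that of the tau-labelled against the control-labelled libraries. No label states the tau construct, how long it was expressed, or whether each library had its own culture, and a p-value therefore reflects library-to-library spread that could be technical.

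DNA replication needs a division of labour among these proteins. Polymerase alpha-primase lays down a short RNA-DNA primer, after which polymerase epsilon extends the leading strand and polymerase delta the lagging strand. PCNA is the ring that holds polymerases on DNA, and FEN1 trims the flaps between lagging-strand fragments so that they can be joined. The genes are known to be transcribed most strongly around the start of S phase, in part under E2F transcription factors, so their messenger RNA is widely read as a sign of proliferating cells.

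The promoter sequences are shown first, with matches to E2F-type and other common promoter motifs. The motifs were chosen with the sequences in view, and their part in the changes of these genes was not tested. RefSeq windows of 300 bases on GRCh38.p14, from 250 bases before the annotated start to 50 after its beginning, were at hand for 9 of the 10 genes (POLD3 had none), 12 windows in all. The words TTTCCCGC, TTTCGCGC, TTTGCCGC and TTTGGCGC, which spell out the E2F consensus, were searched on both strands. At least 1 match lay in a window of 5 of the 9 genes, POLA1, POLA2, POLE, POLE2 and PCNA, against 3.99% of all 27305 genes with a window and 3.31% of all 35116 windows. Each of the 5 is printed 5′ to 3′ on the strand of its gene with the match in capitals, and FEN1, which had no match, is printed beside them because its change was the second in size.
POLA1, chrX:24693668-24693967, plus strand: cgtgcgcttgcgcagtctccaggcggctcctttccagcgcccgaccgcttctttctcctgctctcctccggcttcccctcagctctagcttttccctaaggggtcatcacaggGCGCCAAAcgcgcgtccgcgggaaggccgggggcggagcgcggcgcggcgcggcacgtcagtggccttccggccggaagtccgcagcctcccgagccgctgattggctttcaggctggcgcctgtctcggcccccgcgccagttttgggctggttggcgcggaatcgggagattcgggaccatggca
POLA2, chr11:65261712-65262011, plus strand: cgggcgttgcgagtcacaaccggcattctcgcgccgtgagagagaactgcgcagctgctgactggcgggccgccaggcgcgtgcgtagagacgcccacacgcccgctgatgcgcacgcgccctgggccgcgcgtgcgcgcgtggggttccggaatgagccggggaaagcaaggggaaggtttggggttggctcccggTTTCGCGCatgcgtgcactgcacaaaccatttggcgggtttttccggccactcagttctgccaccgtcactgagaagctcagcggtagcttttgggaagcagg
POLE, chr12:132687293-132687592, minus strand: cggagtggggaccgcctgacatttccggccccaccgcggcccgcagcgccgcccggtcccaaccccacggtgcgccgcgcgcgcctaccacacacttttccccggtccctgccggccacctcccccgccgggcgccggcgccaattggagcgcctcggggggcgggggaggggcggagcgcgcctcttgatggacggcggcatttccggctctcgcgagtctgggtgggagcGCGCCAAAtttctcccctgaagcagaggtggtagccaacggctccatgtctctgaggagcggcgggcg
POLE2, chr14:49688165-49688464, minus strand: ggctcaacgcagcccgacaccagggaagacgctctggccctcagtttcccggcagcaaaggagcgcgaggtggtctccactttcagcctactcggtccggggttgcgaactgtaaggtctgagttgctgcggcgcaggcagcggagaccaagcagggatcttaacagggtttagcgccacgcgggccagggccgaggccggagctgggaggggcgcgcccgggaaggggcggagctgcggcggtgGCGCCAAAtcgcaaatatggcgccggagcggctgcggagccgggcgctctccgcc
PCNA, chr20:5126573-5126872, minus strand: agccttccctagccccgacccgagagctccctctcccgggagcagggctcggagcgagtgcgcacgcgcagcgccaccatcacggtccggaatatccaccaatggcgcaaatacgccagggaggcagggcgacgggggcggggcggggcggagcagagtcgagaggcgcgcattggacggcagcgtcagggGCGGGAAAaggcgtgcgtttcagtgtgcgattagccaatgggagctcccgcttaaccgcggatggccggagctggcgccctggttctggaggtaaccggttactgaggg
FEN1, chr11:61792661-61792960, plus strand: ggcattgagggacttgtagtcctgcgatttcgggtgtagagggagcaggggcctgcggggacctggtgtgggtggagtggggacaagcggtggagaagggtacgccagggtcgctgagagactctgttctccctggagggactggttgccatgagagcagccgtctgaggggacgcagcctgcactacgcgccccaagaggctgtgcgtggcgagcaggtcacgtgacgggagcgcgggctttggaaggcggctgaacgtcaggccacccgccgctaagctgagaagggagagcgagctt

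The capitals of POLA1, POLE and POLE2 spell the same octamer, the reverse complement of TTTGGCGC. It began 137 bases before the start in POLA1, 18 before it in POLE and 5 before it in POLE2, where it crossed the start. POLA2 held TTTCGCGC on its own strand, from 53 bases before the start, and PCNA held TTTCCCGC on the other strand, from 59 bases before it. Other common promoter motifs were searched in the same way. CCAAT lay in windows of 4 of the 9 genes (POLA1, PRIM1, POLE and PCNA), and in 39.7% of all genes with a window. The GC box GGGCGG lay in windows of 5 (POLA1, POLD1, POLE, POLE2 and PCNA), against 48.3% of all genes. In PCNA a GC box shared bases with the E2F match, other GC boxes shared a base with the next, and in POLE the CCAAT matches of both strands overlapped. Neither PRIM2 window nor that of FEN1 held any of these words, and a match or its absence says nothing of binding in these cells.

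**Figure D1:**
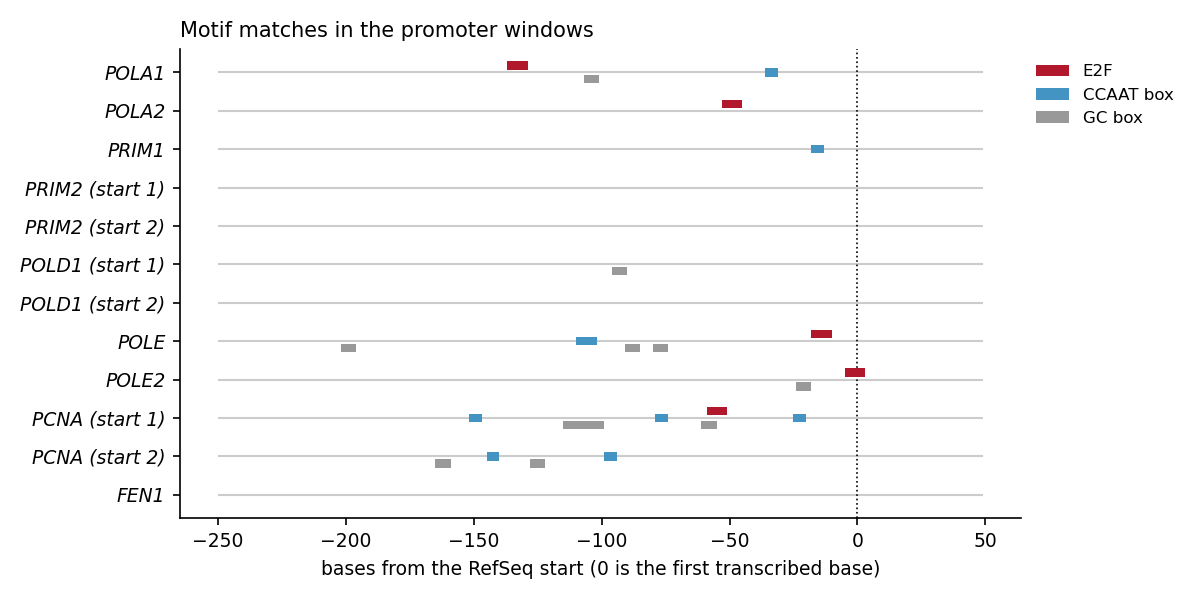
Positions of motif matches in the 12 RefSeq promoter windows of 9 genes. The horizontal axis gives bases from the annotated start, and each line is 1 window; red bars are E2F words, blue bars CCAAT and grey bars GC boxes. E2F matches lie in 5 windows, from 137 bases before the start in POLA1 to the start itself in POLE2.

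Library totals lay between 58229083 and 65512119 counts. POLE2 was the least counted of these genes, with 177 counts in control-labelled library 1. Its 95% Poisson interval, 152 to 205, covers counting error alone and holds only where each count is a separate fragment. The deposited counts may derive from coverage, and the interval could then be too narrow. MAPT, which encodes tau, went against the labels: it had 279, 391 and 345 counts in the control-labelled and 145, 150 and 176 in the tau-labelled libraries (log2 fold change -1.20, edgeR adjusted p = 0.00151). MAPT was low under either label, with a mean FPKM of 0.333 for control and 0.156 for tau, so neither group showed a high level. Whether the labels were exchanged was not tested, nor whether RNA of the construct was counted as MAPT. An exchange would turn every direction given here and would leave MAPT at these same low levels. Of 7 tested markers of this glioma line 1 rose, 4 fell and 2 did not pass, where 21.3% of all genes tested rose and 21.4% fell. The fall of TNC was lost in 10 of 18 other settings, the rise of VIM in 5 of 18 and the fall of GFAP in 2 of 15. Mean FPKM, control-labelled first, was 1346 and 1784 for VIM, 277 and 45.6 for CHI3L1, and 12.1 and 2.95 for NES. It was 146.9 and 129.6 for TNC, 84.6 and 94.7 for CD44, and 55.5 and 52.9 for FN1, the last 2 not passing. The glial marker GFAP (0.136 and 0.0595) and the stem-cell factor SOX2 (0.0235 and 0.0120, not tested) were near 0 under both labels. All of these but VIM and CHI3L1 were named after their values were seen. Summed FPKM ranged over 1850 to 1970 and 2050 to 2150 for 8 glioma line markers, 141 to 159 and 73.1 to 87.7 for 3 immune markers, 2.55 to 3.01 and 0.496 to 0.594 for 5 endothelial markers, 6.45 to 7.34 and 1.20 to 1.72 for 5 epithelial markers, and 1.08 to 1.21 and 1.13 to 1.30 for 4 neuron markers, in control-labelled and tau-labelled libraries in turn. VIM made up most of the glioma line sums, and their direction was that of VIM. Of the other glioma line markers only CD44 had a higher mean in the tau-labelled libraries. None of the marker genes in the table was at 0 in all libraries, and their part in the results was not tested. The 2 most abundant of each list had these mean FPKM, in the same order: CD68 151.5 and 80.2, CD14 0.902 and 0.138 (ITGAM, the third immune marker, rose, with 0, 3 and 0 and then 22, 39 and 21 counts), PECAM1 1.67 and 0.174, VWF 0.631 and 0.215, KRT8 5.58 and 1.05, KRT19 0.512 and 0.0329, SNAP25 0.704 and 0.701, and SYP 0.273 and 0.338. Over the 17927 genes tested, the median log2 fold change was 0.00439 with TMM and 0.117 with library size alone. Limma on log2(FPKM + 0.5) had a median of 0.148 over a smaller set, the 11129 genes at a mean FPKM of at least 1. It called 4013 of that set higher and 2330 lower, where the fit used here called 3822 and 3830 of its 17927. Library size alone called 4590 and 3183, and upper-quartile scaling, with a median of -0.0966, 3122 and 4489.

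All 10 replication genes rose in the tau-labelled libraries, in a table where 21.3% of the 17927 genes tested rose and 21.4% fell. Their log2 fold changes ran from 0.50 for POLD1 to 1.91 for POLA1, with a median of 1.01 beside 0.00439 for all genes tested. For each of them the FPKM of the 3 tau-labelled libraries all lay above those of the 3 control-labelled ones, as was so for 32.5% of the genes tested. "Rose" and "fell" are used of an adjusted p below 0.05 in the quasi-likelihood test of edgeR, with Benjamini-Hochberg adjustment over all genes tested. FPKM, as deposited, is fragments per kilobase of gene, scaled to the size of the library, and folds are those of the fit, which carries a TMM scaling that FPKM lacks. An exact two-sided permutation test was run on log2(FPKM + 0.5) of each gene, and all 10 had p = 0.1, which 3 libraries against 3 cannot go below. RNA from pooled cells does not tell apart a larger share of replicating cells from more RNA in each such cell.

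**Figure D2:**
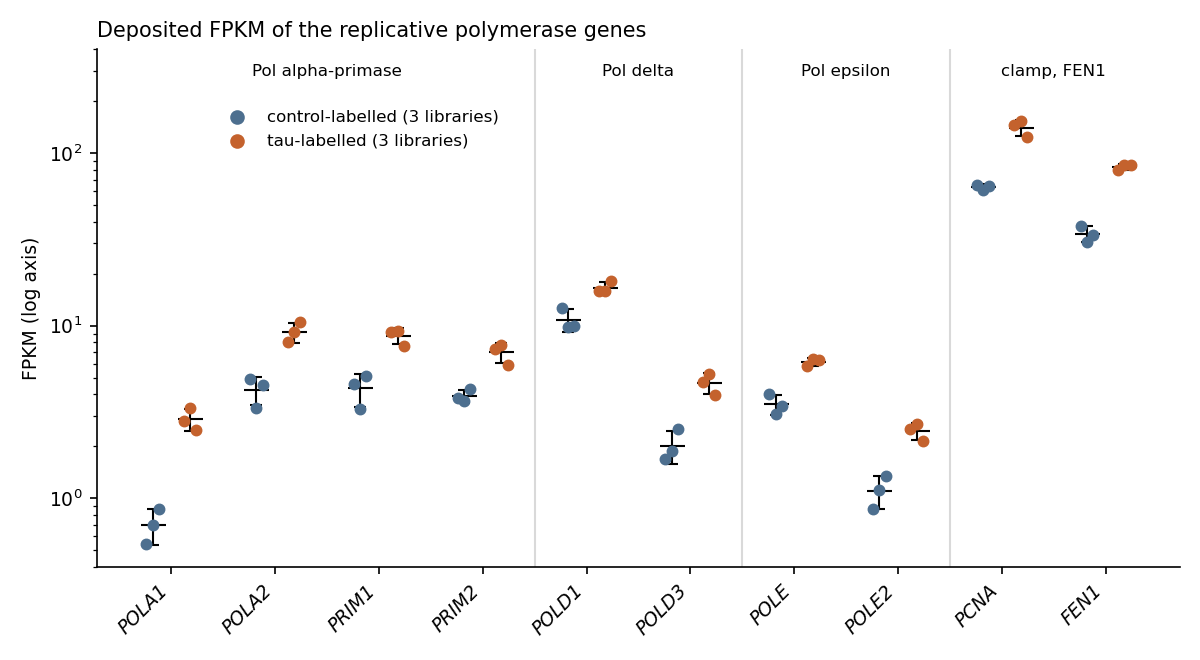
FPKM of the 10 genes on a log axis, grouped by complex. Points are libraries, 3 control-labelled (blue) and 3 tau-labelled (orange) for each gene, and black bars are the mean ± SD. The tau-labelled points lie above the control-labelled points of the same gene in all 10, and PCNA and FEN1 lie highest.

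Within polymerase alpha-primase, the catalytic subunit POLA1 changed most. POLA1 (ENSG00000101868, chromosome X, 24693873 to 24996969 on GRCh38) had 0.541 FPKM in control-labelled library 1, 0.696 in library 2 and 0.869 in library 3, and 2.79, 3.31 and 2.498 in the tau-labelled ones in the same way. The lowest tau-labelled value was thus well above the highest control-labelled one, and the fit gave a 3.77-fold rise (log2 fold change 1.91, SE 0.17, edgeR adjusted p = 4.51e-05). Of all genes tested, 98.1% had a lower log2 fold change. POLA2, the regulatory subunit that tethers the complex (chromosome 11, 65261920 to 65305589), had 4.89, 3.35 and 4.51 FPKM in the control-labelled and 7.99, 9.17 and 10.4 in the tau-labelled libraries. It rose 1.99-fold (log2 fold change 0.995, SE 0.17, edgeR adjusted p = 0.00148).

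PRIM1, the small primase subunit that makes the RNA primer (chromosome 12, 56731296 to 56752374), had 4.61, 3.27 and 5.10 FPKM in the control-labelled libraries and 9.25, 9.30 and 7.65 in the tau-labelled ones. Control-labelled library 2 was the low value of its group, and the rise was 1.86-fold (log2 fold change 0.89, SE 0.17, edgeR adjusted p = 0.00268). PRIM2, the large primase subunit (chromosome 6, 57314805 to 57646850), had 3.80, 3.65 and 4.29 FPKM against 7.35, 7.72 and 5.92. It rose 1.65-fold (log2 fold change 0.72, SE 0.13, edgeR adjusted p = 0.00164), with the groups apart and tau-labelled library 3 the lowest of its group. PRIM2 has a near-identical pseudogene copy on the same chromosome, so its level is uncertain where shared reads were split. With offsets for GC content and gene length, a setting added after the data were seen, its log2 fold change became 0.37 and that of PRIM1 0.58, and both kept an adjusted p below 0.05 (0.00926 and 0.0117).

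In polymerase delta the 2 genes chosen did not rise alike in size. POLD1, the catalytic and proofreading subunit (chromosome 19, 50384204 to 50418014), had 12.7, 9.77 and 9.97 FPKM in the control-labelled and 15.9, 15.8 and 18.04 in the tau-labelled libraries. The groups lay apart, and the fitted change, a 1.41-fold rise, was the smallest of the 10 (log2 fold change 0.50, SE 0.15, edgeR adjusted p = 0.0205). That call ended without control-labelled library 2 (log2 fold change 0.41, adjusted p = 0.108), without control-labelled library 3 (0.41, 0.0751), without tau-labelled library 3 (0.41, 0.0640) and with upper-quartile scaling (0.40, 0.0542). POLD3, the accessory subunit through which the enzyme also grips PCNA (chromosome 11, 74493851 to 74669117), had 1.68, 1.87 and 2.504 FPKM against 4.69, 5.26 and 3.96. It rose 2.12-fold (log2 fold change 1.08, SE 0.16, edgeR adjusted p = 0.000723), and its lowest tau-labelled value exceeded its highest control-labelled one.

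The other subunits of polymerase delta, which are not among the 10 genes, did not rise. POLD4, the smallest subunit of polymerase delta, had 31.6, 34.8 and 27.9 FPKM in the control-labelled and 14.6, 14.2 and 18.5 in the tau-labelled libraries. It fell 2.16-fold (log2 fold change -1.11, SE 0.15, edgeR adjusted p = 0.000408), with no overlap between the groups, and its log2 fold change stayed between -1.26 and -0.76 over the other settings. POLD2, which binds POLD1 to the rest of the enzyme, had 48.9, 43.5 and 43.1 FPKM against 42.9, 43.5 and 55.2, groups that overlap (log2 fold change -0.05, SE 0.14, edgeR adjusted p = 0.795). Its value became 0.27 with offsets for GC content and length (adjusted p = 0.0133). The 4 subunits of polymerase delta therefore had fitted log2 fold changes of 0.50 (POLD1), -0.05 (POLD2), 1.08 (POLD3) and -1.11 (POLD4).

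Polymerase epsilon showed a narrower range. POLE, its catalytic subunit (chromosome 12, 132623753 to 132687347), had 4.02, 3.06 and 3.43 FPKM in the control-labelled and 5.81, 6.45 and 6.31 in the tau-labelled libraries. It rose 1.62-fold (log2 fold change 0.70, SE 0.13, edgeR adjusted p = 0.00244), but with an offset for gene length alone it had a log2 fold change of 0.40 and did not pass (adjusted p = 0.0776). POLE2, the second subunit of the core enzyme (chromosome 14, 49643555 to 49688422), had 0.862, 1.12 and 1.34 FPKM against 2.53, 2.69 and 2.16, a rise of 2.04-fold (log2 fold change 1.03, SE 0.20, edgeR adjusted p = 0.00251). The histone-fold subunits had smaller fitted changes. POLE3 had 33.6, 36.2 and 34.0 FPKM against 46.3, 51.1 and 46.4 (log2 fold change 0.35, SE 0.10, edgeR adjusted p = 0.0180), a call that ended with upper-quartile scaling (0.0757), with the replicate number as a block (0.0825) and without control-labelled library 2 (0.0570), control-labelled library 3 (0.0597) or tau-labelled library 2 (0.0836). POLE4 had 14.8, 13.2 and 14.0 FPKM against 17.1, 17.6 and 22.02, values that do not overlap although the fit did not pass (log2 fold change 0.32, SE 0.14, edgeR adjusted p = 0.0986). POLE4 did pass in 6 of 18 other settings, with edgeR adjusted p of 0.0252 for library size alone, 0.0276 for genes at a mean FPKM of 5 or more, 0.0116 with a length offset and 0.00399 with GC and length offsets, and with limma on FPKM (0.0127 and 0.0125 for pseudocounts of 0.5 and 1).

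**Figure D3:**
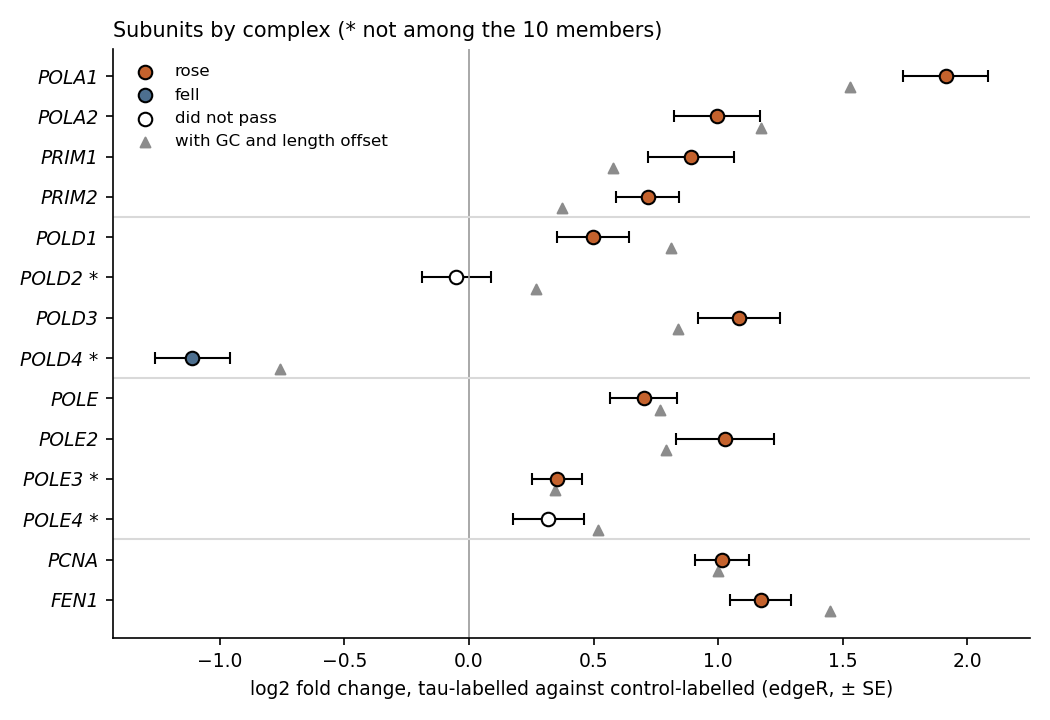
Fitted log2 fold change (edgeR, circles, ± SE) of the 10 genes and of the other 4 subunits, which are starred, with 3 libraries a group. Orange circles rose, the blue circle fell and white circles did not pass, while grey triangles give the same value with offsets for GC content and gene length. POLA1 stands highest at 1.91 and POLD4 lowest at -1.11.

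PCNA and FEN1 were the most abundant of the 10 in both groups. PCNA (chromosome 20, 5114953 to 5126626) had 65.6, 60.9 and 64.9 FPKM in the control-labelled and 145, 153 and 123 in the tau-labelled libraries. Its groups lay far apart beside a narrow control-labelled spread, and it rose 2.02-fold (log2 fold change 1.02, SE 0.11, edgeR adjusted p = 0.000114). FEN1 (chromosome 11, 61792911 to 61797238) had 38.0, 30.7 and 33.5 FPKM against 79.5, 85.0 and 85.3. It rose 2.25-fold (log2 fold change 1.17, SE 0.12, edgeR adjusted p = 9.51e-05). Both genes have processed pseudogene copies elsewhere in the genome, and reads shared with them cannot be told apart here.

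The genome around several of the genes moved in another direction. FADS2, a fatty acid desaturase, is annotated in the deposited table on the same strand as FEN1 with a span that covers 4259 bases of it. FADS2 had 64532, 55965 and 54855 counts in the control-labelled and 4602, 4861 and 5984 in the tau-labelled libraries, a fall of 3.60 on the log2 scale (SE 0.13, edgeR adjusted p = 6.82e-07). FEN1 over the same libraries had 5692, 4355 and 5017 and then 11232, 11725 and 13141 counts, so the overlapping genes had opposite directions. Its other neighbours FADS1, MYRF and the unnamed gene ENSG00000289268 fell, with log2 fold changes of -1.56, -2.31 and -1.31. HSD17B6, a steroid dehydrogenase gene whose first 214 bases overlap PRIM1 on the other strand, fell by 1.72 on the log2 scale (edgeR adjusted p = 0.00186). KLHDC1, whose span begins 4683 bases beyond POLE2 on the other strand, fell by 2.34 on the log2 scale from low counts (20 to 76, and then 4 to 17). PXMP2, a peroxisomal membrane protein gene that starts 240 bases from POLE on the other strand, did not pass at -0.33 (edgeR adjusted p = 0.0943). CDS2, an enzyme of phospholipid synthesis 253 bases from PCNA on the other strand, had 0.07 (edgeR adjusted p = 0.616). Of the remaining tested neighbours, apart from those that overlap POLA2 and POLD3 on the same strand, none passed: NACA (0.18), which shares 333 bases with PRIM1, EEF1B2P3 (-0.25) within POLA1, ENSG00000287917 (0.21) at the end of POLA2, NR1H2 (-0.25) beside POLD1, LIPT2 (-0.19) beside POLD3, TMEM230 (-0.04) beside PCNA and TMEM258 (-0.28) beside FEN1.

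For POLA2 the overlap ran with its own direction. The gene ENSG00000285816, which the deposited table describes as a read-through of POLA2 and CDC42EP2, covers 43662 bases of the POLA2 span on the same strand. It had 850, 682 and 336 counts in the control-labelled and 1865, 1277 and 1721 in the tau-labelled libraries (log2 fold change 1.27, edgeR adjusted p = 0.00839). Its lowest value was in control-labelled library 3, while that of POLA2 was in control-labelled library 2. Counting both as 1 gene, a setting added after the data were seen, put the log2 fold change of POLA2 at 1.08 (edgeR adjusted p = 0.000586). For POLD3, the unnamed gene ENSG00000254837 shares 4683 bases of its span on the same strand and rose from low counts (log2 fold change 0.70, edgeR adjusted p = 0.0489).

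Ratios of FPKM within a library do not depend on library size factors, though they can on gene length and base composition, and 7 were compared. POLA1 to POLA2 was 0.111, 0.208 and 0.193 in the control-labelled and 0.349, 0.361 and 0.239 in the tau-labelled libraries, a shift of 0.92 on the log2 scale without overlap. That shift was 0.451 with a pseudocount of 0.5, and the fitted changes with offsets for GC content and length were 1.53 for POLA1 and 1.17 for POLA2. POLA1 to POLE was 0.135, 0.227 and 0.254 against 0.480, 0.513 and 0.396, a shift of 1.22 (0.741 with the pseudocount). POLD1 to POLE was 3.17, 3.19 and 2.91 against 2.75, 2.46 and 2.86, a shift of -0.20. With offsets the order of their fitted changes turned, to 0.81 for POLD1 and 0.77 for POLE with GC content and length, and to 0.485 and 0.403 with length alone. Those 3 ratios did not overlap between the groups, each with exact two-sided permutation p = 0.1, the smallest possible, and 0.233 after adjustment over the 7, so none can pass. The groups overlapped for PRIM1 to PRIM2 (shift 0.20, exact p = 0.2), POLD1 to POLD3 (-0.58, exact p = 0.2), POLE to POLE2 (-0.34, exact p = 0.4) and FEN1 to PCNA (0.16, exact p = 0.3). Single libraries set much of these shifts. PRIM1 to PRIM2 was 0.0578 without control-labelled library 2, POLD1 to POLD3 was -0.341 and POLE to POLE2 -0.0663 without control-labelled library 1, and FEN1 to PCNA was 0.0539 without tau-labelled library 3. POLD1 to POLD3 varied widely among the control-labelled libraries, at 7.57, 5.23 and 3.98, and was 3.40, 3.02 and 4.55 in the tau-labelled ones. POLE to POLE2 was 4.66 in control-labelled library 1 and between 2.30 and 2.92 in the other 5 libraries.

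**Figure D4:**
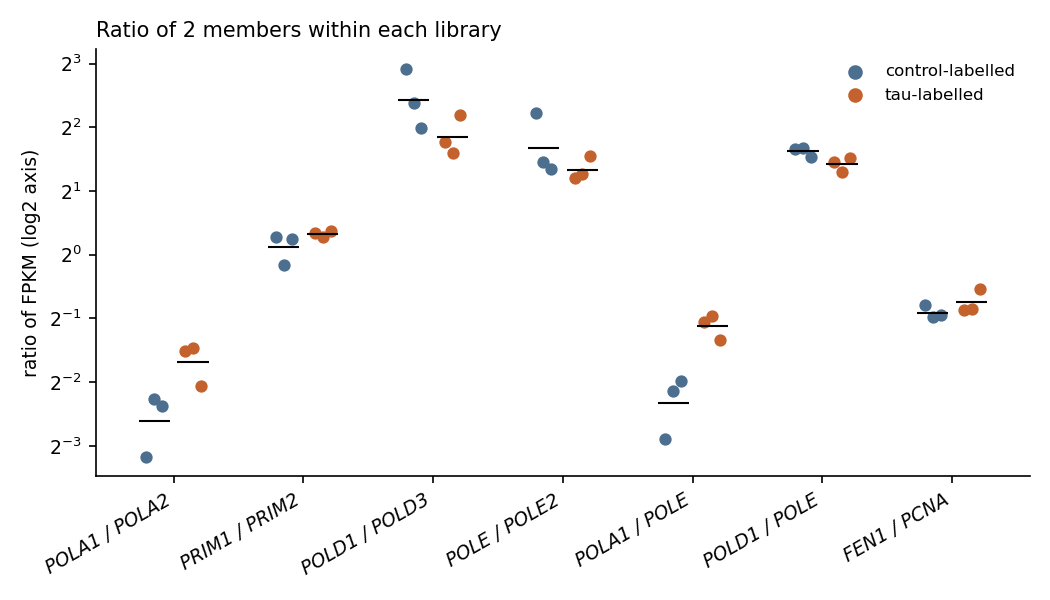
Ratio of the FPKM of 2 genes within each library, on a log2 axis. Points are libraries, 3 per label, and black bars are the mean on the log scale. POLA1 to POLA2 and POLA1 to POLE are higher in the tau-labelled libraries without overlap, and POLD1 to POLE is lower without overlap.

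The 10 genes did not rank the libraries of one label alike. On the log2 CPM scale (log2 of counts scaled to library size with TMM), control-labelled library 2 was the lowest of its group for POLA2, PRIM1, PRIM2, POLE, PCNA and FEN1. Control-labelled library 1 was lowest for POLA1, POLD3 and POLE2, and library 3 for POLD1. Tau-labelled library 3 was lowest of its group for POLA1, PRIM1, PRIM2, POLD3, POLE2 and PCNA, while it was the highest for POLA2, POLD1, POLE and FEN1. The principal transcripts of those 4 genes are the richest in G and C of the 10, at 54.5%, 64.8%, 56.4% and 53.7%, where the other 6 lie between 40.1% and 45.3%. The range within a group reached 0.60 log2 units, for POLA2 among the control-labelled libraries, and was 0.16 for PCNA in the same libraries.

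The size of the change also ran with base composition over the whole table. Across 17547 genes, which are not independent replicates, log2 fold change and GC content had a Spearman's rho of -0.319, and across the 10 genes, which share the libraries, it was -0.297. With offsets for GC content and gene length all 10 still rose, but their order changed. FEN1 stood at 1.45, POLA2 at 1.17 and POLD1 at 0.81, each higher than before, while POLA1 stood at 1.53, PRIM1 at 0.58 and PRIM2 at 0.37. POLD3 had 0.84, POLE2 0.79 and POLE 0.77, and PCNA differed by less than 0.05 from its value of 1.02. The part of base composition in these changes was not tested further.

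The order of levels was PCNA, FEN1 and POLD1 first in both groups, each pair of neighbours apart in every library. In the control-labelled libraries PCNA had 63.8 ± 2.54, FEN1 34.1 ± 3.66 and POLD1 10.8 ± 1.66 FPKM (mean ± SD, n = 3). PRIM1 (4.33 ± 0.947), POLA2 (4.25 ± 0.802), PRIM2 (3.91 ± 0.333) and POLE (3.502 ± 0.482) followed, with overlap between each and the next. POLD3 (2.02 ± 0.431) stood below POLE without overlap, and POLE2 (1.11 ± 0.240) and POLA1 (0.702 ± 0.164) overlapped at the bottom. In the tau-labelled libraries, means ran from 140 ± 15.3 for PCNA to 2.46 ± 0.272 for POLE2, and POLA1 (2.87 ± 0.412) had moved above POLE2 with overlap.

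These levels rest on the lengths the authors' FPKM was divided by, which can be read back from counts and FPKM. For POLA1 that length was 16786 bases, where the principal transcript of GENCODE 29 has 5486, a ratio of 3.06. For POLE it was 18102 against 7840, and for FEN1 2366 against 2296. Per kilobase of the principal transcript, with counts per library scaled by TMM, POLA1 stood at 2.23 ± 0.451 and POLE2 at 2.08 ± 0.382 in the control-labelled libraries (SD, n = 3), so that their order turned, still with overlap. In the tau-labelled libraries POLA1 had 8.39 ± 1.05 on that scale, above POLD3 at 6.90 ± 0.822 with overlap. The 3 most abundant genes stayed in the same order, at 73.9 ± 4.20 for PCNA, 36.6 ± 4.87 for FEN1 and 17.5 ± 3.23 for POLD1 in the control-labelled libraries.

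Among lists of related genes, beside 21.3% of all genes tested that rose and 21.4% that fell, the replisome scaffold, whose products open and organise the fork, had all 13 of its genes risen, with a median log2 fold change of 1.01. They included MCM10, an initiation factor (2.30), WDHD1, which links polymerase alpha to the helicase (1.93), and DONSON, a fork protection factor (1.80). Of 9 genes of clamp loaders, which open PCNA and place it on DNA or take it off, 6 rose and 3 did not pass (median 0.58). ATAD5, which unloads PCNA, rose 4.29-fold, and the loader subunits RFC3 and RFC4 rose with log2 fold changes of 1.25 and 0.92. Of 8 genes of fragment maturation and single-strand binding, 2 rose and 6 did not pass (median 0.29), a share near that of all genes. DNA2, a nuclease-helicase that cuts long flaps, rose by 1.27 and LIG1, the ligase that seals the fragments, by 0.49, and RPA2 of the single-strand binding complex had 0.29 (edgeR adjusted p = 0.0620). The LIG1 call was near the threshold (edgeR adjusted p = 0.0426) and was lost in 9 of 17 other settings, among them each library left out except control-labelled library 1, and RPA2 passed in 7 of 18.

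Among 10 regulators of PCNA, 6 rose, 1 fell and 3 did not pass, with a median of 0.43. USP1, which removes ubiquitin from PCNA, rose by 1.37, RAD18, which attaches it, by 1.30, and DTL, which directs the destruction of proteins bound to PCNA on chromatin, by 1.47. CDKN1A, whose product p21 binds PCNA, fell by 0.44 on the log2 scale (edgeR adjusted p = 0.0136). That call was lost without control-labelled library 2, tau-labelled library 1 or tau-labelled library 2 and with the GC and length offsets, where the log2 fold change ran up to -0.126 and the adjusted p up to 0.201.

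Calls were mixed among DNA polymerases with other tasks. The 10 genes were chosen with earlier results of these data known, so their shared direction is no measure for other lists. They leave out 4 subunits of the replicative polymerases, of which 1 rose, 1 fell and 2 did not pass, shares near those of all genes. Of 12 translesion and repair polymerase genes, 6 rose, 2 fell and 4 did not pass (median 0.52). POLQ, the polymerase of microhomology-mediated end joining, had 0.306, 0.339 and 0.609 FPKM in the control-labelled and 2.03, 2.62 and 1.91 in the tau-labelled libraries, a 4.83-fold rise (edgeR adjusted p = 0.000140). REV3L, the catalytic subunit of polymerase zeta, rose by 1.14 and POLH, which copies past ultraviolet damage, by 0.55. POLM, an end-joining polymerase, fell with a log2 fold change of -0.76, and POLN with -2.52 from at most 72 counts per library, a call lost in 7 of 15 other settings. Of 7 genes of mitochondrial DNA replication 3 rose, TFAM (0.76), TWNK (0.62) and MGME1 (0.46, a call lost in 6 of 18 other settings), and 4 did not pass (median 0.31), among them POLG, the mitochondrial polymerase (-0.10, edgeR adjusted p = 0.549). Of 12 RNA polymerase II subunits, whose shares were also near those of all genes, 2 rose, POLR2D (0.85) and POLR2B (0.52), 3 fell, POLR2K (-0.61), POLR2H (-0.51) and POLR2C (-0.48), and 7 did not pass (median -0.14). The POLR2B call was lost in 9 of 18 other settings and that of POLR2H with GC and length offsets alone. Counts and medians of these lists are descriptions, and the lists were not tested against each other.

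**Figure D5:**
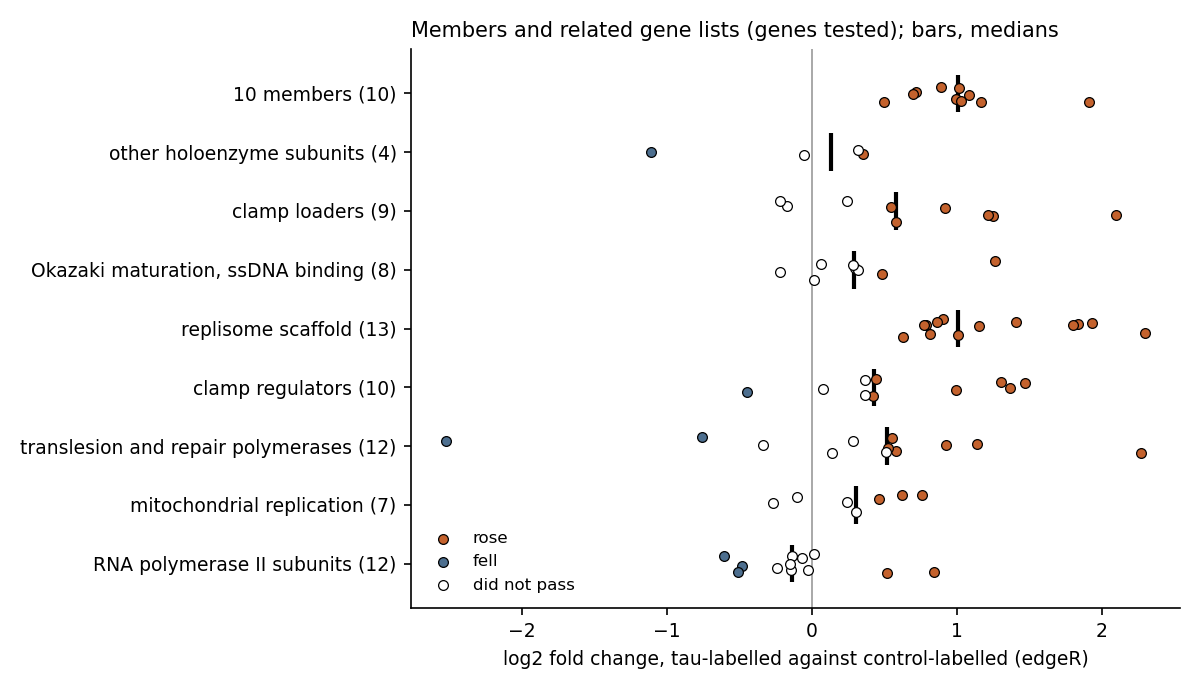
Fitted log2 fold change (edgeR) of each tested gene in the 10 replicative genes and 8 related lists, with the number tested in brackets. Points are genes (orange rose, blue fell, white did not pass), black bars are list medians and the grey line is the median of all genes tested. The 10 genes and the 13 of the replisome scaffold lie wholly above 0, both with a median of 1.01.

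The 5 genes whose profiles lay nearest to the mean of the 10 were sought among 11097 other tested genes with a mean of at least 1 FPKM. Likeness was the root mean square distance of centred log2 CPM over the 6 libraries, which is set mostly by the difference between the labels. NCL, the nucleolar protein nucleolin, was nearest at 0.0471 (36.2 and 74.6 mean FPKM in the control-labelled and tau-labelled libraries). GINS3 of the replicative helicase followed at 0.0493, then FABP5, a fatty acid binding protein, at 0.0551, the unnamed gene ENSG00000267279 at 0.0576, and TRIP13, an ATPase of the spindle checkpoint, at 0.0593. Among the 10 genes themselves PCNA lay nearest to their mean, at 0.0752, and POLA1 farthest, at 0.495.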

How the data were processed

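Messenger RNA of 6 libraries was analysed from the authors' deposited table, which gives whole-number counts and FPKM per gene, and each column was matched to a sample by its title (0 unmapped). Libraries were made from poly(A) RNA with dUTP, which keeps the strand, per the labels' protocols. The strand setting of the counting is not given in the sources used here. Per the submitters' processing notes, the software was HISAT2 2.2.1, StringTie 2.1.6 and cutadapt 1.9 on GRCh38, and DESeq2 and edgeR are named with no role. Values of 4 (6724) outnumber values of 1 (5596), so the deposited counts may derive from coverage. The authors' FPKM equals count over a fixed length per gene and factor per library within 1% for 99.9% of ratios over the 10677 genes that had above 200 counts in every library.

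The test on counts was that of edgeR 4.0.16 (R 4.3.3) (filterByExpr, minimum count 10 and total 15, TMM, glmQLFit and glmQLFTest, group as the sole term) on 17927 genes, two-sided. The SE is the log2 fold change over the square root of F. The script was tested on simulated data. Alternatives used DESeq2 1.42.0 and limma 3.58.1. GC content was that of the GENCODE 29 principal transcript, which 97.9% of tested genes had. Depth was 58229083 to 65512119 counts per library. The genes and lists were chosen with earlier results of these data known, and the motifs with the sequences in view. Named genes are the 10, the other subunits of polymerases delta and epsilon, MAPT and the 5 nearest profiles. Added to them are, in each list, the 3 smallest p in its main direction and up to 2 called in the other. All glioma line markers, the 2 most abundant of each other marker list, and tested genes that overlap or lie within 5 kb are named too. Same-numbered libraries did not deviate together (r = -0.0375, -0.0108 and -0.0938), so no pairing was used.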

Additional observations from a re-analysis of the deposited data

How the results depend on the processing

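All 10 genes rose with library size alone, DESeq2, limma voom, limma on FPKM (pseudocounts 0.5 and 1), no filter, offsets for GC content and length, and the replicate block. Outside the genes dropped by a filter, the exceptions were POLD1 with upper-quartile scaling (log2 fold change 0.395) and POLE with a length offset (0.403). When leaving out 1 library POLD1 ran from 0.405 to 0.658, and it did not pass without control-labelled library 2, control-labelled library 3 or tau-labelled library 3. When only genes at a mean FPKM of 5 or more entered, 6 of the 10 were tested and all 6 rose, and 1757 genes of the table rose and 1708 fell, since fewer genes entered. Limma on FPKM, which covered 11129 genes, gave 2330 and 2336 falls with pseudocounts 0.5 and 1. Leaving out 1 library kept the genes that rose between 2843 and 3803. Log2 fold changes over the other settings ran from 1.18 to 2.06 for POLA1, the pseudocount of 1 giving the lowest, from 0.718 to 1.15 for POLE2, and from 0.375 to 0.832 for PRIM2. With a pseudocount of 0.5 the ratio of POLA1 to POLA2 shifted by 0.451 in place of 0.924.

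With the replicate number as a block all 10 genes rose (POLD1 adjusted p = 0.0420, POLA1 8.93e-05), 3181 genes rose and 3139 fell, and the shift of the POLA1 to POLA2 ratio was 0.924 with exact p = 0.25, the smallest that 3 pairs allow. Under the block 0 of the other holoenzyme subunits and 1 of the fragment maturation genes rose, and no call on the 10 genes changed. Same-numbered libraries did not deviate together, which does not settle whether they were prepared together.

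Counts in the small lists moved by 1 to 7 genes, and the cause was not tested. Of the other holoenzyme subunits, 2 rose with library size alone, with limma on FPKM, with a length offset and at mean FPKM of at least 5, 3 with GC and length offsets, and 0 with upper-quartile scaling, and 0 to 1 when leaving out 1 library. Of the fragment maturation genes, 5 rose with library size alone, 4 with limma on FPKM, 4 with GC and length offsets (where 1 fell), 1 with upper-quartile scaling and with no filter, and 1 to 3 when leaving out 1 library. Of the translesion and repair polymerases, 1 fell with library size alone, with no filter and with limma on FPKM, 0 rose and 0 fell at mean FPKM of at least 5, and 3 to 7 rose and 1 to 2 fell when leaving out 1 library. Of the RNA polymerase II subunits, 1 rose with upper-quartile scaling, no filter or a length offset, and 1 to 2 when leaving out 1 library. Of the PCNA regulators, 3 rose at mean FPKM of at least 5, 3 rose and 0 fell with GC and length offsets, and 0 to 1 fell when leaving out 1 library. Of the replisome scaffold 6 rose at mean FPKM of at least 5, and 1 clamp loader fell with GC and length offsets. Ranked by level per kilobase of the principal transcript in the control-labelled libraries, POLA1 stood at 9, POLA2 at 7, PRIM1 at 5, PRIM2 at 4, POLE at 6 and POLE2 at 10, which follows from the lengths used.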
